A study of Homo sapiens with 12 samples.

Results

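The E2F transcription factors and the pocket proteins that bind them are described here by the level of their RNA in the deposited tables of an RNA-seq experiment on p53 activation. Members were the genes listed under the names E2F1, E2F2, E2F3, E2F4, E2F5, E2F6, E2F7, E2F8, RB1 and RBL1, and all 10 were found once in each of the 2 tables among 25914 genes. RNA came from 12 libraries of 2 established cell lines with 3 libraries per group. RPE-1 hTERT, an immortalized line from retinal pigment epithelium, and HCT116, a colon cancer line, both carry the label wild-type and were grown with DMSO or with 10 µM Nutlin-3a for 24 h. Nutlin-3a blocks the binding of p53 by MDM2, its main negative regulator, and thereby stabilizes p53. Both lines are epithelial by their labels.

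E2F proteins bind DNA at promoters of genes for DNA replication and cell cycle entry. E2F1, E2F2 and E2F3 mostly activate these genes, whereas E2F4 and E2F5 mostly repress them together with pocket proteins. RB1 and RBL1 are pocket proteins: they hold E2F factors inactive or turn them into repressors until cyclin-dependent kinases phosphorylate them. E2F6 represses without pocket proteins, and E2F7 and E2F8 are atypical repressors that bind DNA without the usual dimerization partner. E2F7 is also a known p53 target gene.

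The only value used here is the base mean, the authors' mean over libraries of read counts after division by a size factor for each library. The base mean was the same in both tables for all 25914 genes. It therefore belongs to neither cell line and to neither treatment, and which libraries entered it is not given in the sources used here. Libraries of other cells may be among them, so the levels below cannot be read as the mean of RPE-1 and HCT116 cells. No replicate error, depth or count per library can be given for it. Differences between members are accordingly stated as ratios of these means and were not tested. The effect of Nutlin-3a on the members is not analysed here. In bulk RNA, fewer expressing cells and less RNA per cell cannot be told apart.

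Short promoter sequences show a feature that the choice of members did not use, the typical E2F site. Windows from 250 bases before to 50 bases after the gene start were taken from RefSeq (GRCh38.p14) and searched on both strands for TTTCCCGC, TTTGGCGC, TTTCGCGC and TTTGCCGC. A window was given for 8 of the 10 members, with 9 windows in all. Counted by gene, 4 of these 8 (E2F1, E2F2, E2F3 and RBL1) had at least 1 match in any window. Counted by window, 3.31% of all 35116 windows held any of the 4 motifs. The most common was TTTCCCGC with 1.63% of the windows, and TTTGGCGC had 0.652%. The matches are shown 5′ to 3′ on the strand of the gene, with the motif or its reverse complement in capitals, since the 2 activators E2F1 and E2F2 and the pocket protein RBL1 share the same 8 bases:

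E2F1, chr20:33686387-33686416, minus strand: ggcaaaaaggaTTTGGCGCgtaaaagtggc

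E2F1, chr20:33686400-33686429, minus strand: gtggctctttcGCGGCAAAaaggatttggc

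E2F2, chr1:23531257-23531286, minus strand: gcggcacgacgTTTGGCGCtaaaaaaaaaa

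RBL1, chr20:37095995-37096024, minus strand: ttttcgcgcgcTTTGGCGCaggtggttgtg

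RBL1, chr20:37096005-37096034, minus strand: cagctgcagatTTTCGCGCgctttggcgca

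E2F3, chr6:20401815-20401844, plus strand: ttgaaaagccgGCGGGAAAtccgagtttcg

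TTTGGCGC began 20 bases before the start of E2F1, 42 before that of E2F2 and 16 before that of RBL1. E2F1 and RBL1 each held a further match nearby, so that both of their printed windows overlap. The match of E2F3 lay on the other strand in 1 of its 2 windows. The windows of E2F4, E2F6, E2F7 and RB1 held no exact match to any of the motifs searched. E2F sites with other bases were not searched for. The window of RB1 began 172456 bases inside the GENCODE gene, so it does not cover the outermost annotated start. A match is a description of the sequence only, and binding was not measured here.

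E2F4, the most common partner of pocket proteins in resting cells, had the highest level of the family. The gene (ENSG00000205250) lies on chromosome 16 of GRCh38 from 67192155 to 67198918, plus strand. Its base mean was 2342 and the union of its exons is 3.60 kb long, which gives a base mean per kb of exons of 651.4. Levels were divided by the length of the union of annotated exons because longer transcripts yield more reads. E2F5 (ENSG00000133740), the other repressor that works with pocket proteins, stood at the low end with a base mean of 255.0 and 42.5 per kb. E2F4 was thus 15.3 times as high as E2F5 per kb.

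Among the activators, E2F1 (ENSG00000101412, chromosome 20 from 33675477 to 33686385, minus strand) and E2F3 (ENSG00000112242, chromosome 6 from 20401879 to 20493714, plus strand) lay close together. E2F1 had a base mean of 826.2 and 307.1 per kb. For E2F3 the base mean was 1520 and the level per kb 292.8. E2F3 exceeded E2F1 by a ratio of 1.84 in base mean, but the ratio was 0.953 per kb, since the exons of E2F1 are only 2.69 kb long and those of E2F3 5.19 kb. E2F2 (ENSG00000007968, chromosome 1 from 23506438 to 23531233, minus strand) was lower, with a base mean of 577.4 and 105.7 per kb. E2F1 had 2.91 times the level of E2F2 per kb, and 1.43 times in base mean.

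The atypical repressors were far apart. E2F7 (ENSG00000165891, chromosome 12 from 77021248 to 77065569, minus strand) ranked next after E2F4 with a base mean of 2282 and 362.7 per kb. E2F8 (ENSG00000129173, chromosome 11 from 19224063 to 19241620, minus strand) had a base mean of 256.7 and 62.1 per kb, so that E2F7 was 5.84 times as high per kb. E2F6 (ENSG00000169016, chromosome 2 from 11444375 to 11466177, minus strand), the repressor that needs no pocket protein, had a base mean of 399.3 and 98.2 per kb.

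Of the levels per kb summed over the 8 E2F genes, the activators and the repressors E2F4 and E2F5 held similar shares. E2F1, E2F2 and E2F3 made up 36.7% of the sum and E2F4 with E2F5 made up 36.1%, most of it from E2F4 with 33.9%. E2F7 and E2F8 held 22.1% and E2F6 5.11%. As these are repressors as well, all repressors together held a larger share than the activators. With the longest annotated transcript as length, the activators held 32.0% and E2F4 with E2F5 held 42.1%. RNA levels do not give the amounts of the proteins.

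RB1 (ENSG00000139687, chromosome 13 from 48303744 to 48599436, plus strand), the retinoblastoma tumour suppressor, had a base mean of 1636 and 254.3 per kb. Its relative RBL1 (ENSG00000080839, chromosome 20 from 36996349 to 37095997, minus strand), which encodes the protein p107, had a base mean of 436.2 and 73.2 per kb. RB1 was 3.47 times as high as RBL1 per kb. RBL2, the remaining pocket protein gene and no member, lay next to RB1 with 264.1 per kb of exons, although its base mean was higher (2142).

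**Figure D1:**
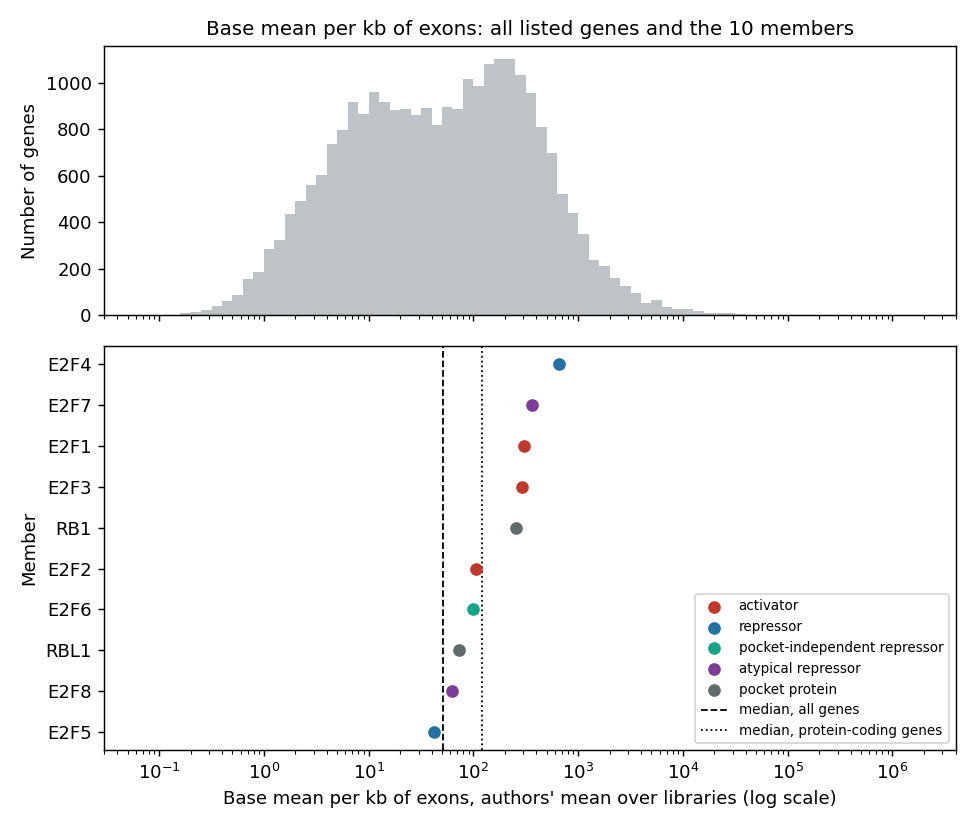
Base mean per kb of exons on a log scale, for all 25836 listed genes with an exon length as a histogram of gene numbers (top) and for each member as a point colored by its role (bottom). Dashed and dotted lines mark the medians of all genes (51.3) and of protein-coding genes (120.3). E2F4 lies farthest to the right at 651.4 and E2F5 farthest to the left at 42.5.

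Set against the other genes, the members covered the middle and upper part of the range. The median over the 10 members was 180.0 per kb, beside 51.3 over all 25836 genes with an exon length and 120.3 over the 15740 protein-coding ones. The 5 members E2F1, E2F3, E2F4, E2F7 and RB1 lay above the 75th percentile of all genes, which by its definition leaves 25% of them and which left 34.2% of the protein-coding genes. E2F4 was at the 90.9th percentile of all genes and E2F7 at the 83.3rd. E2F5 was at the 47.3rd percentile, the only member below the median of all genes. All members are protein-coding, and 5 of the 10 (E2F2, E2F5, E2F6, E2F8 and RBL1) lay below the median of protein-coding genes. Among protein-coding genes alone, only E2F4 (88.2nd percentile) and E2F7 (77.5th) lay above the 75th percentile. E2F1 (73.5), E2F3 (72.4) and RB1 (68.9) lay below it.

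Reads of the members could be shared with few other genes. In GENCODE 44, no exon base of any member overlapped an exon of another gene on the same strand. On the opposite strand, 18.8% of the exon bases of E2F5 were covered by other exons, among them those of RBIS. The share was 3.58% for RBL1 and 0.169% for E2F8. According to the study's methods, reads were counted by strand. Processed pseudogenes of E2F3 and E2F6 are listed as well, of which E2F6P1 had the highest base mean (21.4) and E2F3P1 had 6.29. By the same methods, only uniquely mapped reads were kept. Reads that map to both a parent gene and its pseudogene would then not be counted.

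Genes of the same pathway were described by the same measure. Of the dimerization partners and the remaining pocket protein, 2 of 3 lay above the 75th percentile of all genes. That limit was passed by 34.2% of protein-coding genes, and the shares of these short lists were not tested against it. TFDP1, whose product pairs with E2F proteins to bind DNA, had 934.3 per kb and was higher than every member, whereas TFDP2, the second partner, had 126.0. In the MuvB core, which joins E2F4 and a pocket protein in the DREAM repressor complex, 1 of 5 genes was above that limit and the median was 103.3 per kb. RBBP4, a histone-binding protein of several chromatin complexes, had 502.3 per kb, followed by LIN52 with 116.4 and LIN54 with 103.3.

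Among protein-coding genes, 34.2% were above the 75th percentile of all genes. Upstream of RB1, 7 of 9 genes for cyclins, kinases and a kinase inhibitor were above that percentile, with a median of 502.2 per kb. CDKN1A, the p53 target that encodes the inhibitor p21, had 21511 per kb. The cyclin gene CCND1 had 11124 per kb and the kinase gene CDK4 1615. Downstream, 14 of 16 E2F target genes of DNA replication and the cell cycle were above it, and their median was 631.5 per kb. The highest was PCNA, the sliding clamp of DNA polymerases, with 2459 per kb. TYMS, which encodes thymidylate synthase, had 2346 per kb and TK1, the gene of thymidine kinase, 1443. The medians of the upstream genes and of the targets both exceeded the median of the members.

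**Figure D2:**
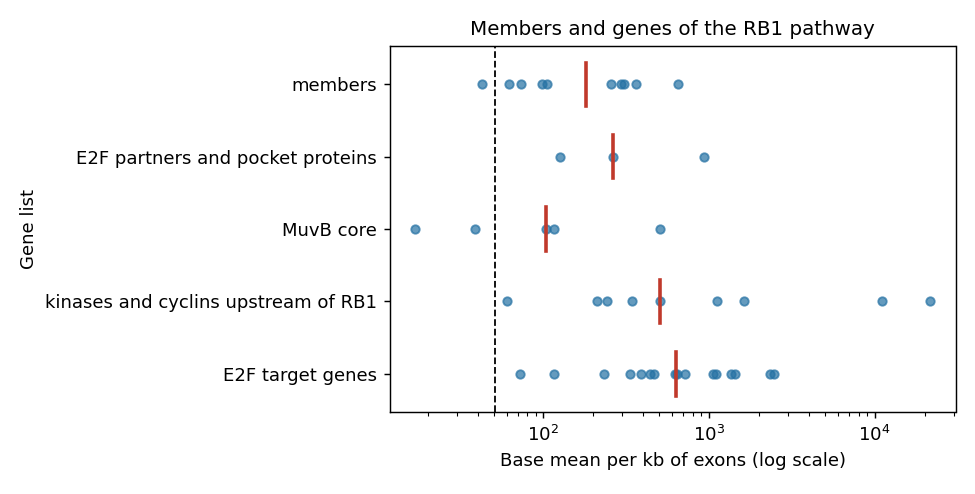
Base mean per kb of exons on a log scale for the 10 members and for 4 lists of genes of the RB1 pathway. Points are genes, red bars the medians of the lists, and the dashed line the median of all listed genes (51.3). The list of E2F target genes has a median of 631.5 and the members one of 180.0.

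Marker genes were read from the same mean, which can speak for neither line alone. All 5 epithelial markers were above the 75th percentile of all genes, from 1020 per kb for EPCAM to 23914 for KRT19. All 3 mesenchymal markers were as well, with VIM at 12260. Among protein-coding genes, 34.2% lay above this limit. Of the 5 markers of retinal pigment epithelium, RPE65 and RLBP1 were not listed, and BEST1, TYRP1 and MITF had 7.81, 21.5 and 65.2 per kb.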

How the data were processed

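Libraries were assigned to cell line and treatment by their labels. According to the study's methods, the authors mapped reads to hg38 with Ensembl 102, kept uniquely mapped reads and used featureCounts for strand-specific counts per exon. The submitters' processing notes name featureCounts 2.0.1, DESeq2 1.32.0, Trimmomatic 0.39, cutadapt 3.3 and SAMtools 1.12. The study's methods name other versions of featureCounts, DESeq2 and cutadapt, so these methods may not describe the deposited values in every step. The labels describe ribosomal RNA depletion, the study's methods poly(A) selection, and these methods name RPE-1 but not HCT116.

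As deposited signal, the base mean was used, which the authors took with DESeq2 as the mean of normalized counts over libraries. Further columns hold 5 values of the authors' own comparison of Nutlin-3a with DMSO (log2 fold change, its standard error, test statistic, p-value and adjusted p-value). These were not used here. As no values per library were at hand, the planned tests between treatments and between cell lines were not run, and the depth per library is unknown.

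Base means were divided by the union of exons in GENCODE 44 on the same build, in which 25836 of 25914 genes (99.7%) were found by identifier. The authors counted reads with the earlier annotation Ensembl 102, so the exons counted and the lengths used can differ. Genes absent there were left out of the percentiles. A percentile is the percent of genes at or below a value. Exon lengths and percentiles were tested on simulated data. All members and, from each pathway list, the 3 highest genes per kb were named. The pseudogenes E2F6P1 and E2F3P1 and the marker genes were named in addition, after their values were seen. The members and lists were chosen with earlier results of these data known. Python 3.11.15, numpy 2.4.6, pandas 2.3.3 and matplotlib 3.10.9 were used.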

Additional observations from a re-analysis of the deposited data

How the results depend on the processing

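The median level of the 10 members was 208.8 per kb with the longest annotated transcript in place of the union of exons, and 701.8 as a base mean with no correction for length. Their median place, the 69.3rd percentile of all listed genes, was 58.0 among protein-coding genes and 61.8 among genes with base means of at least 10. With the longest transcript, 9 of 10 members had a higher value per kb, and 5 changed their rank: RB1 had 343.1 per kb and passed E2F1 (307.1) and E2F3 (301.8), and E2F6 (115.7) passed E2F2 (111.1). E2F4 and E2F7 remained the 2 highest members and E2F5 the lowest. E2F4 with E2F5 then made up 42.1% of the E2F sum and the activators 32.0%, so the near equality of both shares depends on the length used. E2F4 had 39.8%.

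No paired analysis was possible because both tables give a single mean per gene. Leaving out libraries, another normalization and a filter on counts per library were likewise not run. The differences between members have no replicate error.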
